A study of Homo sapiens with 14 samples.

Results

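Kinesins are the ATP-driven motor proteins that walk along or take apart microtubules, and the human genome encodes a superfamily of them together with the light chains that tie kinesin-1 to its cargo. The members described here were all genes whose symbol begins with KIF followed by a digit or C, plus KLC1 to KLC4. The table of the OmoMYC experiment held 47 such identifiers (45 symbols) of 17810 identifiers, and the table of the parental-cell experiment held 45 of 19143. KIF2B and KIF28P were not analysed here. The members were put into 3 classes by textbook function: mitotic motors (13 symbols), transport motors with their light chains (17 symbols) and other kinesins (15 symbols).

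RNA was measured in CHP-134, a human neuroblastoma cell line with amplified MYCN, the gene for N-MYC. In the first experiment, 3 libraries came from CHP-134 cells engineered to express OmoMYC, a dominant-negative MYC fragment that interferes with binding of MYC proteins to DNA, and 3 from a separately engineered line expressing enhanced green fluorescent protein (EGFP). Both lines carried a lentiviral Tet-On construct selected with G418 and were grown in Tet-approved serum, and both received 1 µg/ml doxycycline for 3 days, so any difference between the lines themselves is part of each OmoMYC value. In the second experiment, parental CHP-134 cells, which carry no tagged protein, received DMSO (4 libraries) or 500 nM dTAG47 (4 libraries) for 18 h. dTAG47 is a degrader of proteins that carry an FKBP12-derived tag, so these cells measure what the compound does where it has no engineered target.

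Total counts were 28060817 to 38358128 per library in the OmoMYC experiment and 40861430 to 53451641 in the parental experiment. Levels are given in CPM, a gene's counts scaled to a common library total. Of the 9 adrenergic neuroblastoma markers, the summed level was 3795 to 4556 CPM in EGFP and 3777 to 3999 CPM in OmoMYC libraries, although the catecholamine enzyme genes DBH (0.40 CPM in EGFP) and TH (0.24 CPM) were near 0. MYCN made up most of that sum and was called lower (-0.28 on the log2 scale), while ISL1 (0.75), CHGA (0.37), DBH (1.49) and TH (1.66) were called higher and the other 4 were not called. The 7 mesenchymal markers summed to 99.9 to 110 CPM in EGFP and 96.4 to 105 CPM in OmoMYC libraries, with CD44 (1.73) and COL1A1 (0.57) called higher and COL1A2 (-1.02) and YAP1 (-1.10) lower. The part of these marker changes in the kinesin results was not tested. CPM values here were scaled by the trimmed mean of M values (TMM) within each experiment. Kinesin levels were compared between genes only per kilobase of transcript, while marker genes were summed and ranked in plain CPM.

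Mitotic kinesins are made mainly in dividing cells, where they push the spindle poles apart, align and move chromosomes and build the midzone at which the cell divides. Transport kinesins carry vesicles, organelles and protein complexes outward along microtubules and are best known from axons. A neuroblastoma line is both proliferating and neuronal in origin, and both classes were expressed in these cells. Per kilobase, the highest mean in EGFP libraries was that of KIF1A, a carrier of synaptic vesicle precursors, at 106 ± 18.2 CPM per kb (SD, n = 3). It was followed by the chromokinesin KIF22 at 84.7 ± 5.14, the kinesin-1 heavy chain KIF5B at 84.5 ± 7.71 and the midzone motor KIF20A at 80.9 ± 1.01 CPM per kb. The last 3 did not differ beyond their spread, and in EGFP replicate 1 KIF5B was above KIF1A.

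In OmoMYC against EGFP, the mitotic motors were lower and most of the changed transport motors were higher. Of the 12 mitotic identifiers that passed the filter on low counts, 10 were called lower and 0 higher at an adjusted p under 0.05, beside 25.7% of all 13803 genes tested that were called lower. Of the 17 transport members, all of which were tested, 9 were called higher and 2 lower, beside 27.3% of all genes called higher. The median log2 fold change was -0.54 over the mitotic motors, 0.22 over the transport motors and 0.01 over all genes. Over all 3 classes 27 of 44 tested identifiers were called in either direction, beside 53.0% of all genes, and for 32 the EGFP and OmoMYC libraries did not overlap, beside 62.3%. In the parental cells, 0 of 45 kinesins were called for dTAG47 against DMSO by edgeR, and 0 by DESeq2.

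**Figure D1:**
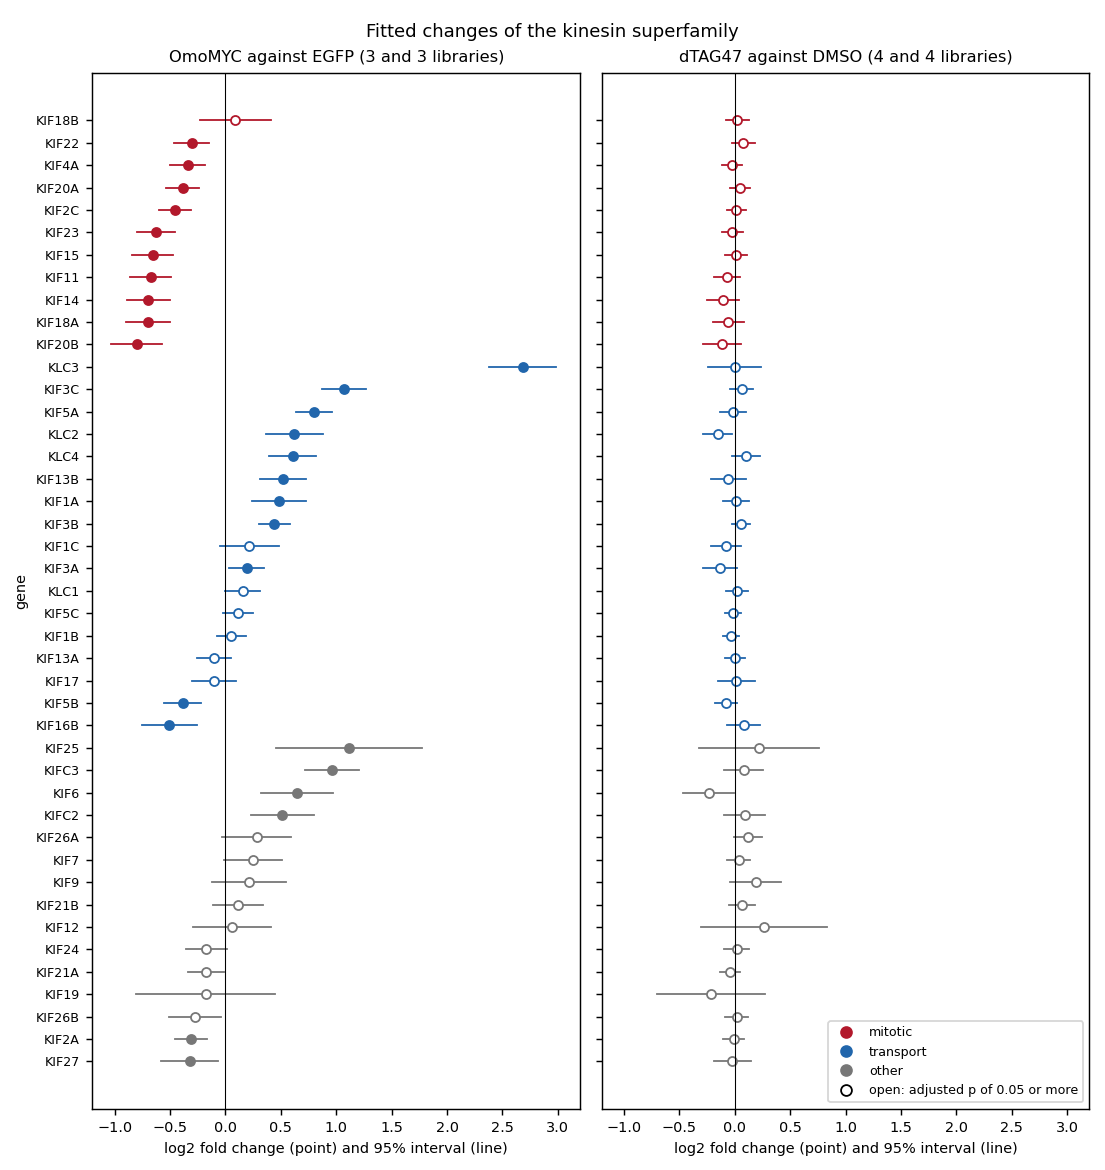
Fitted log2 fold change (points) with its 95% interval (lines), by class, in OmoMYC against EGFP (left) and dTAG47 against DMSO (right). Shown is each kinesin tested in the OmoMYC experiment except KIFC1, so KIF4B, tested only in the parental experiment, is not drawn. Filled points have an adjusted p under 0.05: 10 mitotic members lie left of 0 on the left panel, KLC3 stands farthest right at 2.68, and no point is filled on the right panel.

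The promoters of the members were read for 4 short motifs on both strands. RefSeq windows of GRCh38.p14 from 250 bases before to 50 after a start site were used. The motifs were the cell-cycle gene homology region (CHR) TTTGAA, its variant TTTAAA (added after the sequences had been seen), the CCAAT box, and the E-box CACGTG that MYC proteins recognise. CHR elements and CCAAT boxes are known from promoters of genes that peak late in the cell cycle. TTTGAA was in 10 of 15 windows of 14 mitotic genes (66.7%), in 1 of 18 windows of 13 transport genes (5.56%) and in 15.2% of all 35116 windows. KIF2B, whose counts were not analysed here, is among these mitotic genes and its window holds no motif. The transport members KIF5A, KLC2, KLC4 and KIF13B, all called higher, had no window. CCAAT was in 73.3% of the mitotic, 27.8% of the transport and 34.6% of all windows. The E-box was in 0 windows of any kinesin class and in 7.26% of all windows. Among mitotic members called lower, TTTGAA was in 7 of 11 windows (63.6%). KIF2C, KIF20A and KIF22 were called lower without TTTGAA in their windows. KIF18B, with TTTGAA and CCAAT, was not called (0.09 on the log2 scale). KIFC1 and KIF4B also hold TTTGAA, but the first could not be read and the second was not tested in the OmoMYC experiment. The transport window with TTTGAA was that of KIF5B, which also holds CCAAT. A match is a run of letters and no measured site, and no binding was measured in these libraries.

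The following windows are picked examples and do not stand for their whole classes. They are those of 3 mitotic members that were lower in OmoMYC libraries and of the 2 transport members with the largest rise. Matches to any of the 4 motifs are in capitals, and each window is written in the direction of its gene. KIF11 is at chr10:92592880-92593179 (plus strand), KIF23 at chr15:69414099-69414398 (plus), KIF20A at chr5:138178862-138179161 (plus), KLC3 at chr19:45340500-45340799 (plus) and KIF3C at chr2:25982448-25982747 (minus), all in GRCh38.p14.
KIF11: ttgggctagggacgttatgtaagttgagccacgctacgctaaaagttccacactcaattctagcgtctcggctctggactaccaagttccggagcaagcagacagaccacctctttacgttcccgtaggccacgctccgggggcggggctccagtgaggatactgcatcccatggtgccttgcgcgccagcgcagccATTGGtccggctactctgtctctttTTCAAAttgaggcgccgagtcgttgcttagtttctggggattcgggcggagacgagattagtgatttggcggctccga
KIF23: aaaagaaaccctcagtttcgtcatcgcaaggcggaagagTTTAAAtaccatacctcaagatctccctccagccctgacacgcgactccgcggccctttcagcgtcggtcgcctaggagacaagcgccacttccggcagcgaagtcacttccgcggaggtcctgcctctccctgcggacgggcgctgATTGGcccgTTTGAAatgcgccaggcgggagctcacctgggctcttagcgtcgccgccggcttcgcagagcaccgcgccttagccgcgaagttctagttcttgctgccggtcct
KIF20A: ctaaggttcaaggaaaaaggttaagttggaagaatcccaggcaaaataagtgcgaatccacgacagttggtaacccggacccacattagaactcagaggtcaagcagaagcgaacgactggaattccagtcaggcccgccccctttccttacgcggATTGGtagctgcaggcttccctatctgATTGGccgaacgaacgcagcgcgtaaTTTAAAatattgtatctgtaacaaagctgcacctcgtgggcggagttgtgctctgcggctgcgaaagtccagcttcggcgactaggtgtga
KLC3: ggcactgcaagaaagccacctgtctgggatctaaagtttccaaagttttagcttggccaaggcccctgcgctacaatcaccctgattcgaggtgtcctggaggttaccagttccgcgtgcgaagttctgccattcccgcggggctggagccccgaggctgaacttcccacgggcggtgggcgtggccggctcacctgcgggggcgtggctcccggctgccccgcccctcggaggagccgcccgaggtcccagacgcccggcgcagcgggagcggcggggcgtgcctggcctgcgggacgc
KIF3C: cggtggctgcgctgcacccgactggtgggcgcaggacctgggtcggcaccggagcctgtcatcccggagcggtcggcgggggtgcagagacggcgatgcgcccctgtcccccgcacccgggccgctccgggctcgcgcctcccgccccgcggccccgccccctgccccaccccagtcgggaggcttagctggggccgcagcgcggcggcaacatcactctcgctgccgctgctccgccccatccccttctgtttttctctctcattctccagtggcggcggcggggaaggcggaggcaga
The windows of KIF11 and KIF23 hold a CCAAT box, read here as ATTGG, followed by the CHR letters. That of KIF20A has CCAAT boxes and the variant TTTAAA but not TTTGAA. The windows of KLC3 and KIF3C hold none of the 4 motifs.

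Among the motors that build the bipolar spindle, KIF11 and KIF15 were lower in OmoMYC libraries. KIF11, the kinesin-5 motor that slides antiparallel microtubules to separate the poles (chr10:94333862-94415152 in hg19), was at 118, 103 and 96.5 CPM in EGFP replicates 1 to 3 and at 65.6, 68.1 and 65.5 CPM in OmoMYC replicates 1 to 3. KIF15, a kinesin-12 that helps hold the poles apart (chr3:44803213-44914868), was at 70.4, 67.2 and 61.9 CPM in EGFP and 43.6, 44.1 and 38.8 CPM in OmoMYC libraries. For each gene every OmoMYC library lay under every EGFP library. The log2 fold change was -0.67 ± 0.08 (SE) for KIF11 (adjusted p = 0.000104) and -0.66 ± 0.08 for KIF15 (adjusted p = 0.000118).

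The motors of the midzone and midbody showed the same direction. KIF20B, a kinesin-6 motor of cytokinesis (chr10:91461347-91534696), had the largest fall of the mitotic class before the correction for base composition given below. It was at 77.5, 67.8 and 57.9 CPM in EGFP and 37.7, 41.0 and 37.8 CPM in OmoMYC libraries (log2 fold change -0.80 ± 0.10, adjusted p = 0.000143), so that the groups did not overlap. KIF14, which acts at the midbody (chr1:200520625-200589879), was at 139, 121 and 112 CPM in EGFP and 77.8, 77.9 and 73.6 CPM in OmoMYC libraries (log2 fold change -0.69 ± 0.09, adjusted p = 0.000104). KIF23, the motor subunit of the centralspindlin complex (chr15:69706585-69740766), was at 116, 106 and 102 CPM against 72.7, 71.7 and 65.9 CPM (log2 fold change -0.62 ± 0.08, adjusted p = 0.000106). In both, the groups were again apart. KIF20A, which brings the chromosomal passenger complex to the midzone, fell less, from 247 to 253 CPM in EGFP to 179 to 200 CPM in OmoMYC libraries (log2 fold change -0.39 ± 0.07, adjusted p = 0.000749).

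Motors that act on chromosomes and kinetochore microtubules were lower too, apart from KIF18B. KIF18A, the kinesin-8 motor that damps chromosome movement at the metaphase plate (chr11:28042166-28129703), was at 53.5, 47.1 and 44.6 CPM in EGFP and 29.9, 31.3 and 28.1 CPM in OmoMYC libraries. Its log2 fold change was -0.70 ± 0.09 (adjusted p = 0.000129), with no overlap of the groups. The centromeric depolymerase KIF2C changed by -0.45, the chromokinesin KIF4A by -0.34 and the chromokinesin KIF22 by -0.30 on the log2 scale, each called lower. Reads of KIF4A and its near-identical retrocopy KIF4B may not be separable; KIF4B was at or under 0.31 CPM in every library of the OmoMYC experiment and was not tested there.

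KIF18B, which limits astral microtubule length, was not called, with a log2 fold change of 0.09 and a 95% interval of -0.23 to 0.41. Its level was 147, 208 and 239 CPM in EGFP and 207, 198 and 227 CPM in OmoMYC libraries, so that EGFP replicate 1 was the lowest of the 6. Without that library the log2 fold change was -0.10.

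KIFC1, a minus-end motor that clusters spindle poles, could not be read in the OmoMYC table. Its symbol stood there on 3 identifiers with 13 to 34 summed counts per library, which is 0.34 to 1.17 CPM before TMM scaling, while in the parental table it stood on 1 identifier at 92.8 to 112 CPM. Of the 221 symbols with several identifiers in the OmoMYC table, 61.5% were over 10-fold lower in EGFP than in DMSO libraries, compared with 1.28% of the 12267 symbols with 1 identifier. One KIFC1 identifier passed the filter and counts among the 12 tested; without it the mitotic median was -0.62.

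**Figure D2:**
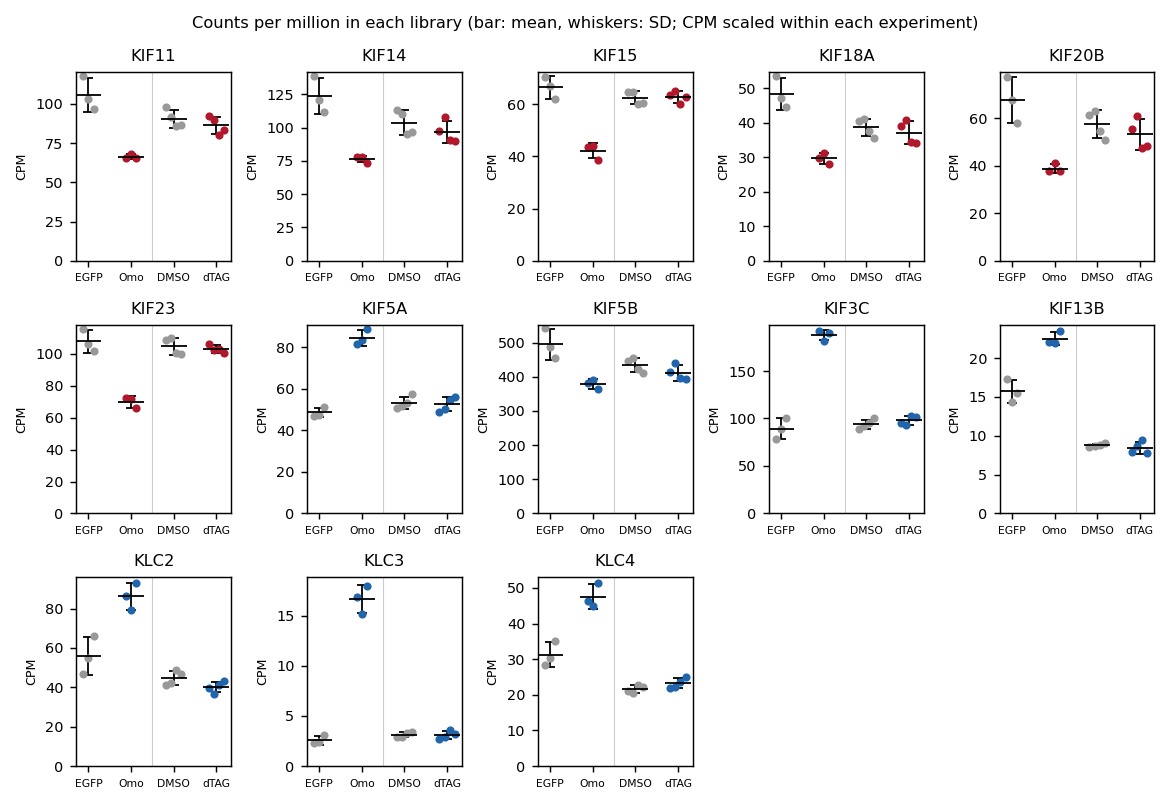
CPM in each library for the mitotic members (red) and transport members (blue) with the largest changes and for KIF5B, with control libraries in grey, the mean as a bar and the SD as whiskers; each y axis starts at 0 and CPM was scaled within each experiment. In the OmoMYC experiment the groups do not overlap for any of the 13 genes shown, while DMSO and dTAG47 libraries overlap for each.

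The proliferation markers moved with the mitotic motors. Their summed level over 6 genes was 1477 to 1561 CPM in EGFP and 1168 to 1181 CPM in OmoMYC libraries. PCNA (-0.71), CCNB1 (-0.66), CCNA2 (-0.53) and MKI67 (-0.35) were called lower on the log2 scale, while MCM2 (-0.13) and CCNE1 (0.04) were not called; in level, CCNE1 was the lowest of the 6, at 26.3 to 29.3 CPM per library. These are bulk libraries, so fewer dividing cells and less mitotic RNA in each cell cannot be told apart.

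Most genes on a chosen list of spindle partners, which are no members, were lower too. MKI67 is on this list as well as among the proliferation markers above. Of 19 spindle partners tested, 15 were called lower and 2 higher, beside 25.7% and 27.3% of all genes, and their median was -0.47 on the log2 scale. CENPE, a kinetochore motor of the kinesin-7 family whose symbol the KIF rule does not catch, went from 191 ± 20.7 to 122 ± 5.88 CPM (SD, n = 3 each) (log2 fold change -0.65 ± 0.09, adjusted p = 0.000167). HMMR, a spindle assembly factor, fell by 1.00 and NUSAP1, a microtubule bundler at the spindle, fell by 0.83 on the log2 scale. The 2 partners called higher were CLASP2, which stabilises microtubule plus ends in dividing and resting cells (0.43), and the spindle pole protein NUMA1 (0.29). The NUMA1 groups overlapped, and its call was lost without EGFP replicate 2 (adjusted p = 0.129) or without OmoMYC replicate 1 (0.0692) or 3 (0.207).

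On the transport side, the widest rise was in a light chain. KLC3 (chr19:45836692-45854778) is one of the light chains that link kinesin-1 heavy chains to cargo. It had 72, 67 and 90 counts in EGFP and 493, 586 and 546 counts in OmoMYC libraries. This was 2.27, 2.40 and 3.10 CPM against 16.8, 15.2 and 18.0 CPM (log2 fold change 2.68 ± 0.14, adjusted p = 1.73e-07). It was 6.43-fold higher, the groups were far apart, and no other kinesin changed as much. The exons of KLC3 share 535 bases with ERCC2 on the opposite strand, and whether counting used strand is not given in the sources used here. ERCC2 itself had a log2 fold change of 0.22 and was not called (adjusted p = 0.0933). Its level was above that of KLC3, with a mean of 73.2 CPM in EGFP and 85.3 CPM in OmoMYC libraries. Whether KLC3 counts hold reads of ERCC2 was not tested.

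Of the other light chains, KLC2 and KLC4 were also higher. KLC2 (chr11:66024765-66035331) was at 47.0, 55.1 and 66.2 CPM in EGFP and 86.5, 79.1 and 93.0 CPM in OmoMYC libraries (log2 fold change 0.62 ± 0.12, adjusted p = 0.0014). KLC4 (chr6:43008515-43042833) was at 28.3, 30.3 and 35.2 CPM against 46.4, 44.8 and 51.4 CPM (log2 fold change 0.61 ± 0.10, adjusted p = 0.000548). Both had non-overlapping groups. KLC4 shares 486 exon bases with CUL7 on the opposite strand, and CUL7 was called higher (0.41). KLC1, the light chain best known from neurons, had a log2 fold change of 0.15 and missed the threshold (adjusted p = 0.0893). It shares 5756 exon bases with XRCC3 on the opposite strand, the largest overlap of any member. XRCC3 had a log2 fold change of -0.10 and was not called. KLC1 also shares 72 bases with BAG5 (opposite strand) and 1989 with ENSG00000256500 (same strand). The level and change of KLC1 may therefore hold reads of other genes.

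The kinesin-1 heavy chains went in different directions. KIF5A, the neuronal heavy chain (chr12:57939809-57980416), was at 47.0, 47.6 and 51.2 CPM in EGFP and 81.4, 83.5 and 88.8 CPM in OmoMYC libraries. Its log2 fold change was 0.80 ± 0.07 (adjusted p = 1.5e-05), with the groups apart. KIF5B, the heavy chain of most cell types (chr10:32297943-32345353), was at 544, 488 and 455 CPM in EGFP and 382, 391 and 364 CPM in OmoMYC libraries. It fell by 0.39 ± 0.07 on the log2 scale (adjusted p = 0.00164), again without overlap. KIF5C, the other neuronal heavy chain, had a log2 fold change of 0.11 (95% interval -0.02 to 0.25) and was not called.

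Per kilobase, the make-up of kinesin-1 RNA differed between the lines. KIF5A made up 5.21% ± 0.56 of heavy chain CPM per kb in EGFP and 9.48% ± 0.40 in OmoMYC libraries (SD, n = 3 each). KIF5B went from 50.7 to 53.4% in EGFP to 40.1 to 42.8% in OmoMYC libraries, and KIF5C from 42.8% ± 0.79 to 48.7% ± 1.09. Among light chains, KLC3 went from 2.76% ± 0.21 to 11.8% ± 0.24 and KLC1 from 35.9% ± 3.42 to 26.2% ± 0.99, while KLC2 (36.1% and 36.7%) and KLC4 (25.2% and 25.3%) differed by less than their SD. In DMSO libraries KLC3 was 3.39% ± 0.19 and in dTAG47 libraries 3.42% ± 0.29 of light chain CPM per kb (SD, n = 4 each). Other shares stood differently in the parental cells than in EGFP libraries. In DMSO libraries KIF5B was at 37.5%, KIF5C at 57.8%, KLC1 at 49.6%, KLC2 at 29.3% and KLC4 at 17.7%. KIF5A, at 4.68% ± 0.37 in DMSO libraries, was near its EGFP share. These shares are a description of the same counts and were not tested. All light chain shares carry the limit of the exon overlap of KLC1 with XRCC3.

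**Figure D3:**
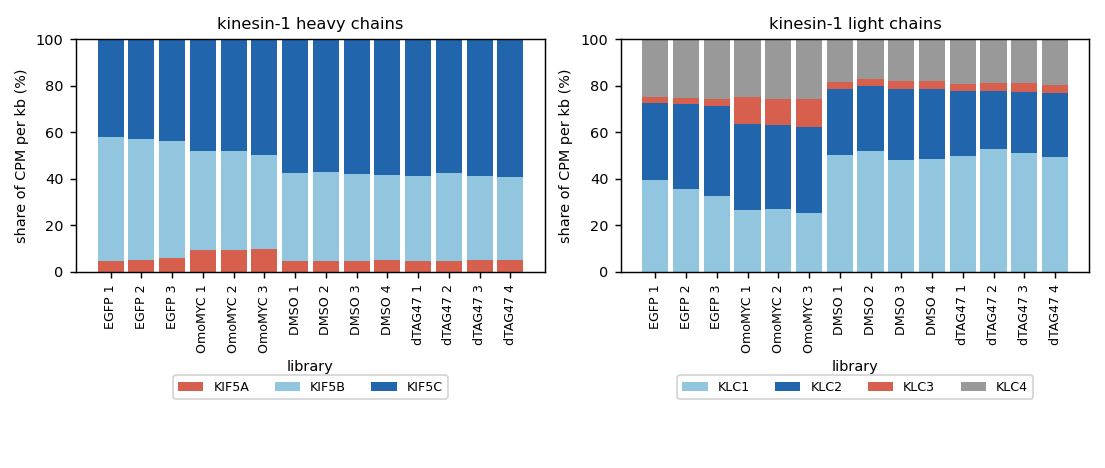
Share of kinesin-1 heavy chain (left) and light chain (right) CPM per kb of transcript taken by each gene, as stacked bars that sum to 100% in each of the 14 libraries. KLC3 (red, right) takes 2.64 to 3.00% in EGFP and 11.5 to 11.9% in OmoMYC libraries.

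Kinesin-2 motors carry cargo in axons and into cilia, as pairs of KIF3A with KIF3B or KIF3C and as KIF17 alone. KIF3C (chr2:26149467-26205618), the partner enriched in neurons, was at 78.3, 89.2 and 101 CPM in EGFP and 192, 182 and 190 CPM in OmoMYC libraries. Its log2 fold change was 1.07 ± 0.09 (adjusted p = 7.4e-06), a 2.10-fold rise with the groups far apart. KIF3B rose by 0.44 and KIF3A by 0.19 on the log2 scale. The call of KIF3A was narrow (adjusted p = 0.045) and was lost in 9 of 15 alternatives, among them DESeq2 (0.0688) and every omission of a library except EGFP replicate 1. KIF17, a dendritic and ciliary motor, had a log2 fold change of -0.10 and was not called.

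Among kinesin-3 motors, which carry vesicles over long distances, 2 were called higher and 1 lower. KIF13B, a carrier of phosphoinositide-bearing vesicles on chromosome 8, was at 17.3, 14.4 and 15.5 CPM in EGFP and 22.0, 22.0 and 23.5 CPM in OmoMYC libraries (log2 fold change 0.52 ± 0.09, adjusted p = 0.00108). KIF1A rose by 0.48 on the log2 scale, from 971 ± 166 to 1356 ± 107 CPM (SD, n = 3 each). KIF16B, which moves early endosomes, fell by 0.51. KIF1B (0.05), KIF1C (0.22) and KIF13A (-0.10) were not called. KIF1C was called higher with a replicate block (0.23, edgeR adjusted p = 0.0245) and without EGFP replicate 3 (0.33, 0.0068).

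Of 42 transport partners tested (dynein and dynactin subunits, adaptors and cargo linkers), 21 were called higher and 4 lower, beside 27.3% and 25.7% of all genes, and their median was 0.28 on the log2 scale. The largest rises were in GRIP1, an adaptor that ties glutamate receptors to kinesin-1 (1.60), and CLSTN3, a calsyntenin of a family that binds light chains (1.34). The largest falls were in RHOT1, the mitochondrial receptor for kinesin-1 (-0.38), and FEZ2 (-0.38). Both of these calls were lost when trends with GC, length and span were removed (RHOT1 -0.094, adjusted p = 0.114, and FEZ2 -0.10, adjusted p = 0.143). GRIP1 and CLSTN3 kept their calls there. The remaining partners of this list, called higher or lower, were not read after that correction.

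Of the 15 other kinesins, 4 were called higher and 2 lower, against 27.3% and 25.7% of all genes, so that the share called higher was near the background. KIFC3, a minus-end motor (chr16:57792129-57896957), was at 4.26, 4.55 and 4.93 CPM in EGFP and 8.77, 9.16 and 8.78 CPM in OmoMYC libraries (log2 fold change 0.96 ± 0.11, adjusted p = 6.03e-05). KIF6 (chr6:39297766-39693184) was at 2.08, 1.75 and 2.00 CPM against 2.97, 3.09 and 3.09 CPM (log2 fold change 0.65 ± 0.15, adjusted p = 0.00431). KIFC2, a minus-end motor found in neurons, was at 9.87, 12.1 and 13.3 CPM against 16.5, 15.0 and 18.9 CPM (log2 fold change 0.51 ± 0.13, adjusted p = 0.00678). All 3 were higher in every OmoMYC library than in any EGFP library; without OmoMYC replicate 3 the adjusted p of KIFC2 was 0.05. KIF25, at or under 1.35 CPM in every library, was called higher (1.12). The depolymerase KIF2A, which works both at spindle poles and in neurons, was called lower (-0.31), as was KIF27 (-0.32). KIF2A shares 2446 exon bases with DIMT1 on the opposite strand, which was called lower (-0.67). The call of KIF27 was lost in 4 of 6 omissions of a library (adjusted p 0.0582 to 0.102). KIF26B, an atypical kinesin, just missed the threshold at -0.27 (adjusted p = 0.0522) and was called lower in 9 of 15 alternatives, DESeq2 among them (0.0315).

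**Figure D4:**
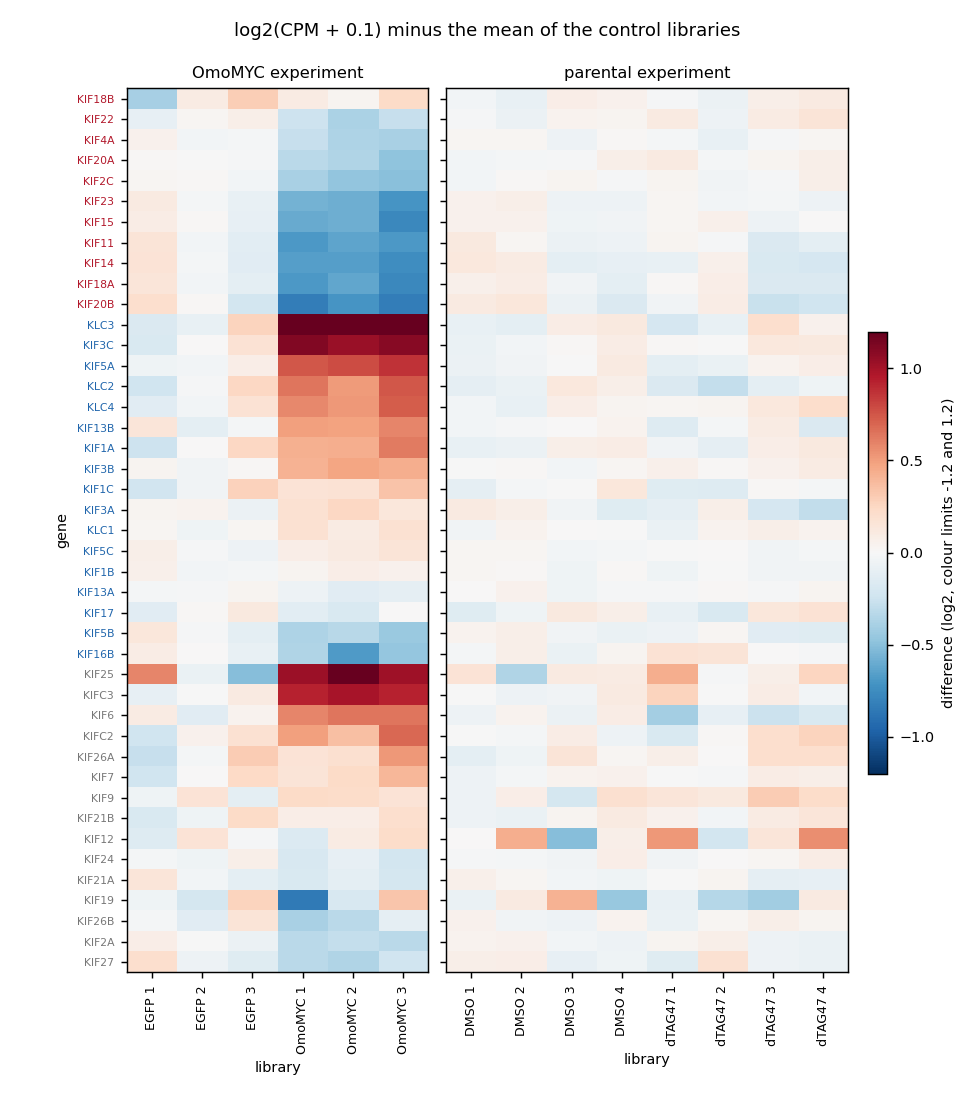
Each tile is the log2 CPM of a kinesin in a library minus the mean of that experiment's control libraries, with gene names coloured by class (red mitotic, blue transport, grey other) and colours limited at -1.2 and 1.2. Blue tiles fill the 3 OmoMYC columns for 10 mitotic members. Red tiles mark KLC3, KIF3C and KIF5A of the transport class and also KIF25 and KIFC3 of the other kinesins. The parental columns on the right stay pale for nearly all genes.

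Base composition went with the classes and the changes in part of the members. The classes overlapped in GC content, and some members did not follow. KIF3A (37.4% GC) was called higher, and KIF17 (63.1% GC) was at -0.10 on the log2 scale and not called. The 6 mitotic members with the largest falls had transcripts of 34.3 to 41.6% GC, while KIF22 (58.1% GC), which fell less, and KIF18B (58.4% GC), which was not called, were richer, and KLC3, KLC2 and KLC4 had 66.1, 63.6 and 58.6% GC. A correction that removed each library's trend with GC content, transcript length and gene span, added after the data had been seen, left all 10 mitotic calls in place but brought the mitotic median from -0.54 to -0.37. KIF20B was then at -0.39, KIF18A at -0.29, KIF14 at -0.39, KIF11 at -0.37, KIF15 at -0.42 and KIF23 at -0.36 on the log2 scale, all called. The largest falls of the class were then those of KIF22 (-0.51) and KIF2C (-0.44), both called. KIF18B was at -0.20 and not called (adjusted p = 0.214).

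On the transport side the corrected median was 0.11, with 8 members called higher and 4 lower, beside 32.0% and 27.1% of all genes. KLC3 (2.37), KIF3C (0.82), KIF5A (0.70), KIF3B (0.47), KLC4 (0.37) and KLC2 (0.27) kept their calls, KIF3A was larger at 0.53 and KIF5C was called higher at 0.11. KIF13B (0.17) and KIF1A (0.05) lost theirs, KIF5B was at -0.09 and still called, KIF16B was at -0.57, and KIF17 (-0.49) and KIF13A (-0.22) became called lower. Of the 15 other kinesins, 3 were then called higher and 5 lower. KIFC3 (0.56), KIF6 (0.41) and KIF25 (1.06) stayed higher, and KIFC2 (0.11), KIF2A (-0.01) and KIF27 (0.03) lost their calls. KIF26B (-0.81), KIF21B (-0.28), KIF24 (-0.23), KIF26A (-0.18) and KIF7 (-0.15) became called lower, of which KIF21B, KIF26A and KIF7 had been above 0 before the correction. How much of the uncorrected change belongs to base composition was not tested.

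**Figure D5:**
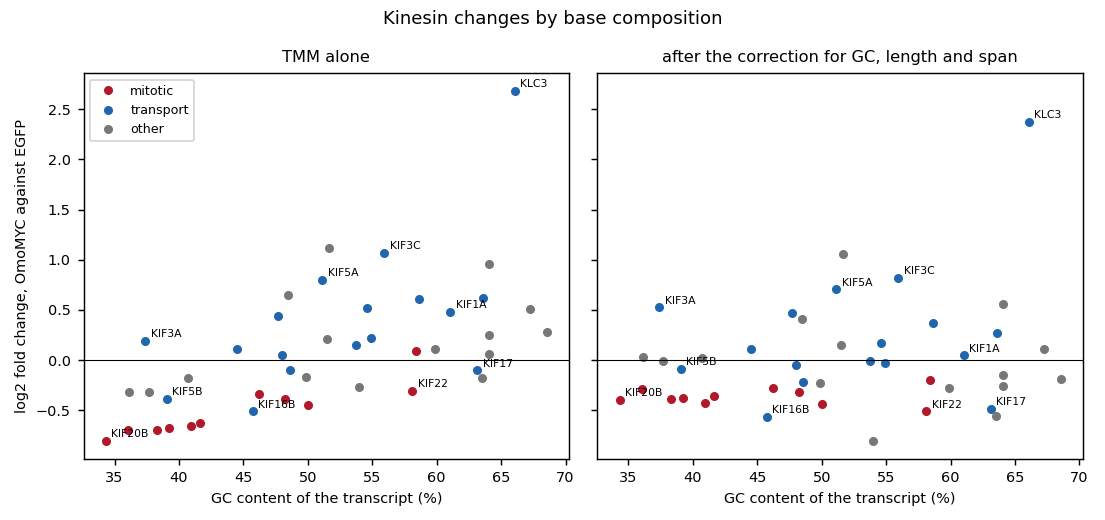
log2 fold change of OmoMYC against EGFP plotted against the GC content of the transcript (%), before (left) and after (right) the correction for GC, length and span, with one point per tested kinesin other than KIFC1. Before correction the lowest mitotic points (red) lie at the GC-poor end, with KIF20B at 34.3% GC and -0.80; after it they lie between -0.51 (KIF22) and -0.20 (KIF18B), and KLC3 stays highest at 2.37.

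In the parental cells, no kinesin passed the threshold for dTAG47 against DMSO. The 0 of 45 called stand beside 0.159% of all 14470 genes tested (23 genes), and 2 kinesins had an unadjusted p under 0.05, beside 7.28% of all genes. The median log2 fold change was -0.02 over 13 mitotic, -0.00054 over 17 transport and 0.03 over 15 other kinesins, and -0.0018 over all genes. The 95% interval of KIF11 was -0.19 to 0.05, that of KIF5B -0.18 to 0.02 and that of KLC3 -0.24 to 0.24 on the log2 scale. The proliferation markers summed to 1151 to 1167 CPM in DMSO and 1119 to 1218 CPM in dTAG47 libraries.

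The 3 kinesins with the smallest p were KLC2, KIF6 and KIF26A. KLC2 was at 41.4, 42.2, 48.6 and 47.0 CPM in DMSO replicates 1 to 4 and 39.7, 36.7, 41.1 and 43.1 CPM in dTAG47 replicates 1 to 4. Its log2 fold change was -0.16 ± 0.06 (edgeR unadjusted p = 0.0246, adjusted p = 0.673), and the groups overlapped. KIF6 was at 2.68, 2.89, 2.66 and 2.99 CPM against 2.09, 2.62, 2.33 and 2.45 CPM (log2 fold change -0.24 ± 0.11, adjusted p = 0.673). It was the only kinesin whose groups did not overlap, beside 3.34% of all genes. KIF26A, an atypical kinesin without motor activity, was at 101, 106, 122 and 111 CPM against 115, 110, 126 and 126 CPM (log2 fold change 0.12 ± 0.06, adjusted p = 0.673).

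Replicates 1 and 2 stood apart from 3 and 4 for some members in both parental groups, though no label names a batch. KIF20B, for instance, was at 61.6 and 63.1 CPM in DMSO replicates 1 and 2 and at 54.7 and 50.9 CPM in replicates 3 and 4, and in dTAG47 libraries at 55.7 and 61.1 against 47.6 and 48.6 CPM. With a factor for that split, 4 kinesins were called, beside 5.49% of all genes: KLC2 (-0.16, adjusted p = 0.0157), KIF26A (0.12, 0.0273), KIF3A (-0.13, 0.0448) and KIF14 (-0.10, 0.0465). Within replicates 1 and 2 alone 0 kinesins were called, beside 0.0483% of all genes, and within replicates 3 and 4 alone 4 of 45 were, beside 6.17%, namely KLC2 (-0.18), KIF3A (-0.16), KIF26A (0.11) and KIFC1 (0.12). The value of KLC2 in replicates 1 and 2 alone was -0.12; after the correction for GC content, length and span it was -0.21 and the only kinesin called (adjusted p = 0.000158), beside 1.03% of all genes. Among spindle partners and transport partners 0 were called; CENPE had the smallest p of the spindle list, with a log2 fold change of -0.20 ± 0.07 (edgeR unadjusted p = 0.0112, adjusted p = 0.673), and passed with the factor (adjusted p = 0.0013).

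The effects of OmoMYC and of dTAG47 share no library, so their difference was tested in a joint fit of all 14 libraries. It was called for 27 kinesins, beside 43.7% of 14525 genes. Of the mitotic class 10 were lower, of the transport class 9 were higher and 2 lower, and of the other kinesins 2 were higher and 4 lower, beside 24.0% of all genes lower and 19.7% higher. The OmoMYC effect minus the dTAG47 effect was 2.65 ± 0.17 for KLC3 (adjusted p = 2.21e-09), 0.97 ± 0.10 for KIF3C (6.58e-07) and 0.78 ± 0.09 for KIF5A (3.09e-06). For KIF11 it was -0.64 ± 0.10 (4.87e-05), for KIF20B -0.73 ± 0.14 (0.000525) and for KIF5B -0.35 ± 0.08 (0.00307). These are log2 differences between treatments of unlike length in cells of unlike history, so the agent, the time and the line cannot be told apart in them.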

How the data were processed

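RNA-seq used ribosomal RNA-depleted total RNA from CHP-134 cells. Per the study's methods, adapters were removed by Cutadapt and STAR mapped the reads to hg19; the authors deposited raw counts per gene from FeatureCounts. Versions, annotation and strand setting are not given in the sources used here. The authors' own test was DESeq2. All deposited count columns were used. Members, classes and lists were chosen with earlier results of these data known.

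Counts were filtered (filterByExpr), scaled by TMM and tested with the robust quasi-likelihood test of edgeR 4.0.16 (R 4.3.3), two-sided, with Benjamini-Hochberg adjustment over all genes of a table and a threshold of 0.05. limma 3.58.1 and DESeq2 1.42.0 served as alternatives. The method was tested on simulated data. Coordinates, lengths and GC content came from GENCODE release 44 lifted to GRCh37 (hg19), using canonical transcripts, or the longest for KIF5C. Promoters came from RefSeq; KIF5A, KLC2, KLC4, KIF13B, KIFC2, KIFC3, KIF19, KIF21B, KIF26B, KIF27 and KIF28P had no entry. Named members are the 6 mitotic, 6 transport and 3 other kinesins with the largest called change at a mean of at least 1 CPM, plus KIF11 and KIF5B, and the 3 smallest p for dTAG47. Named partners are CENPE and, per list, the 2 largest called changes in each direction. Alternatives covered other tools, scaling, filters, a replicate block, class limits and omission of each library. The study calls its libraries biological replicates; nothing else says that they came from separate cultures, and p-values measure only the spread between them.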

Additional observations from a re-analysis of the deposited data

Results flagged for a closer look

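In the parental experiment, 94 groups of 4 libraries (each tested kinesin and the mitotic and transport medians, in DMSO and in dTAG47) were searched for a library far from the other 3, by a gap to its nearest neighbour that exceeds Dixon's critical value at the 95% level, which chance gives in about 1 in 20 groups. It was met 4 times, all in DMSO. KIF1B was at 743.5 CPM in DMSO replicate 3, with the others at 780 to 785 CPM. KIF4A was at 69.8 CPM in DMSO replicate 3, with the others at 73.7 to 74.1 CPM. KIF20A was at 207 CPM in DMSO replicate 4, with the others at 192 to 194 CPM. KIF25 was at 0.255 CPM in DMSO replicate 2, with the others at 0.388 to 0.411 CPM.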

How the results depend on the processing

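In OmoMYC against EGFP, 10 mitotic members were called lower under every tool, scaling and filter and with the replicate block; omission of a library gave 10 to 11. Transport members called higher numbered 8 to 10, also when a library was left out. With KIF21A, KIF21B, KIFC2 and KIFC3 added to the class, 11 were called higher. Those called lower numbered 2 to 3 when a library was left out, but 4 after the GC, length and span correction. The mitotic median (-0.54) was -0.42 with KIF2A and KIF24 added, -0.62 without KIFC1, -0.46 with no filter, -0.61 with at least 10 counts in every library, -0.37 after the correction, and -0.67 to -0.60 when a library was left out. The transport median (0.22) was 0.11 after the correction and 0.19 to 0.33 when a library was left out. The correction turned KIF1B (-0.044), KIF26A (-0.18), KIF21B (-0.28), KLC1 (-0.012), KIF1C (-0.029), KIF12 (-0.26), NUMA1 (-0.079), KIF7 (-0.15), KIF18B (-0.20), KIF21A (0.019) and KIF27 (0.028); the calls of RHOT1 (-0.09) and FEZ2 (-0.10) were lost with it. The cause was not tested. Omission of a library gave KIF18B values of -0.10 (without EGFP replicate 1) to 0.22, KIF12 values of -0.057 (without OmoMYC replicate 3) to 0.16, also below 0 without EGFP replicate 1 (-0.034), and KIF19 values of -0.53 to 0.070 (without OmoMYC replicate 1).

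For dTAG47 against DMSO, 0 kinesins were called under other tools, scalings and filters and when a library was left out (range 0 to 0), 1 after the correction, 3 with the replicate block, and 4 both with the factor for replicates 1 and 2 against 3 and 4 and in replicates 3 and 4 alone. The mitotic median was -0.042 to -0.0049 when a library was left out and 0.020 in replicates 3 and 4 alone, and the transport median -0.029 to 0.02 when a library was left out. KLC3 (-0.00054) was at 0.00096 with upper quartile factors, at 0.024 in replicates 3 and 4 alone and at -0.076 to 0.056 when a library was left out. KIF5A (-0.016) was at 0.0032 in replicates 3 and 4 alone and at -0.049 to 0.026 when a library was left out. The difference of effects was called for 23 to 28 kinesins when a library was left out.

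Whether replicate numbers pair the libraries could not be settled. Correlations of same-numbered deviations were 0.076, -0.0697 and 0.293 in the OmoMYC experiment and 0.0093, 0.109, 0.101 and 0.159 in the parental one, and not every library correlated best with its own number. With the replicate block, which called 4.62% of all genes beside 0.159% without it, the 3 of 45 parental kinesins called were KLC2 (-0.16), KIF3A (-0.13) and KIF26A (0.12). In OmoMYC against EGFP the block called 58.7% of all genes, beside 53.0% without it. KIF26A (0.29), KIF7 (0.26), KIF1C (0.23), KIF21A (-0.17) and KIF26B (-0.27) became called there.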
